A study of Mus musculus with 9 samples.

Results

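The phase II conjugation enzymes examined here are the genes whose symbols begin with Gst, Ugt or Sult followed by a family letter or number, together with Mgst1, Mgst2 and Mgst3. This rule gave 63 of the 23951 genes in each expression table. Of these, 24 are glutathione S-transferases (Gst and Mgst), 21 are UDP-glucuronosyltransferases (Ugt) and 18 are sulfotransferases (Sult). Expression was read from RNA-seq of mouse jejunal crypts, in 3 groups of 3 libraries. Double mutant mice carried floxed Smad4 alleles, 1 Ctnnb1 allele with a floxed exon 3 and Villin-CreER(T2) (Smad4f/f; Ex3f/+;Villin-CreER(T2)), a tamoxifen-dependent recombinase driven by the promoter of the epithelial gene Villin. Loss of exon 3 removes the sites that mark beta-catenin for degradation. Smad4 KO mice carried the floxed Smad4 alleles and the recombinase alone (Smad4f/f;Villin-CreER(T2)). Tamoxifen was given to both kinds of mutant daily for 4 days, and crypts were taken 1 day later. Control mice were given no genotype beyond "control", and are called vehicle-treated in the sample labels but uninjected in the design text, so mutation, recombinase and tamoxifen cannot be told apart in either comparison. Strain, age and sex were not stated, nor whether each library came from a separate animal. If they did not, the p-values measure only the spread between these libraries, which may be technical.

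Phase II enzymes attach a water-soluble group to drugs, dietary compounds, hormones and bile constituents, which are then carried out of the cell by transporters. Glutathione S-transferases add glutathione to electrophiles, UDP-glucuronosyltransferases of the endoplasmic reticulum add glucuronic acid, and cytosolic sulfotransferases add sulfate from the donor PAPS. In the small intestine these enzymes act on what is absorbed from food, and many are more abundant in absorptive enterocytes on the villus than in the dividing cells of the crypt.

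Values are the authors' FPKM, a measure scaled by transcript length and by the number of mapped fragments, in 1 table with the Smad4 KO and control libraries and another with the double mutant and control libraries. The same 3 control libraries stand in both tables, scaled separately, so each comparison was tested within its own table and the mutant groups were not compared with each other. Read counts were not given. Steps between low values put the libraries' relative depth between 0.961 and 1.42 times that of control replicate 0. Smad4, the gene deleted in both mutant groups, was at 9.95 to 11.2 FPKM in the double mutants, against 47.5 to 58.8 FPKM in controls, and at 9.96 to 11.03 FPKM in Smad4 KO crypts, against 46.1 to 55.5 FPKM in controls. Its fold changes were -2.21 and -2.13 on the log2 scale (limma adjusted p = 0.00176 and 0.00664). Gene totals do not show the loss of Ctnnb1 exon 3. Of the stem cell and Paneth cell markers, all 8 of each list passed the expression filter in both tables. All 18 enterocyte markers did so too, so passing the filter cannot show crypt identity. Xist and Y-linked transcripts placed 2 female libraries and 1 male library in each mutant group, against 1 female and 2 male libraries among the controls.

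Enterocyte markers were also present, and their level differed between libraries of the same group. Their summed level was 1690, 3128 and 2902 FPKM in double mutant replicates 0, 1 and 2, against 5335, 7206 and 14030 FPKM in control replicates 0, 1 and 2. All 18 markers were lower on average in the double mutants, and 14 passed the test, where 9.09% of all genes tested fell and 9.39% rose. Of the tested genes of the other marker lists, 4 of 8 immune, 2 of 9 tuft and 1 of 7 goblet markers fell in the double mutants. There 2 of 8 stem cell and 2 of 10 enteroendocrine markers rose, and no Paneth, stromal or red blood cell marker passed. Whether 1 or 2 calls on lists this short exceed the shares of all genes was not tested. In Smad4 KO no marker of any list passed, where 0.0338% of all genes did. In the other table the enterocyte sum was 17730, 1566 and 3086 FPKM in Smad4 KO replicates 0, 1 and 2, against 5173, 6801 and 13450 FPKM in the controls. By this sum Smad4 KO replicate 0 stood above every control, while the other 2 Smad4 KO libraries stood below all of them. The sum gives most weight to the most abundant markers. As a mean over the 18 markers of log2(FPKM + 1) minus the control mean, Smad4 KO replicate 0 was at 0.62, under control replicate 2 at 0.78. On that measure Smad4 KO replicates 1 and 2, at -2.47 and -1.72, were again below all controls. Smad4 KO replicate 0 also had the lowest Paneth marker sum, 9287 FPKM, against 65300 and 127300 FPKM in the other Smad4 KO libraries and 53430 to 149900 FPKM in controls. In bulk RNA, fewer cells of a type and less RNA per cell cannot be told apart. Stromal markers were highest in Smad4 KO replicate 2 (91.2 FPKM summed) and double mutant replicate 0 (57.8 FPKM), against at most 9.32 FPKM in a control.

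Of the 63 genes, 35 averaged at least 1 FPKM over the 6 libraries of a table and were tested, and the number was the same in both tables. These were 21 of the 24 Gst genes, 9 of the 21 Ugt genes and 5 of the 18 Sult genes. A further 13 genes were listed at 0 in all 9 libraries, among them the 7 Sult2a genes, the oestrogen sulfotransferase Sult1e1, Sult1c1, Sult3a1, Ugt2b37, Ugt3a1 and Ugt3a2. The others were detected in at least 1 library but fell under the filter, and the highest value among those was 2.43 FPKM. Glutathione S-transferases made up most of the conjugation transcripts. Summed over members, the Gst family was at 1809 ± 142 FPKM in double mutants and 2144 ± 553 FPKM in controls (SD, n = 3 each). The Ugt family was at 227 ± 30.3 FPKM in double mutants and 480 ± 165 FPKM in controls. The Sult family was at 56.5 ± 10.2 FPKM in double mutants and 257 ± 83.2 FPKM in controls. The Ugt and Sult sums of the double mutants lay below every control, whereas the Gst sums overlapped.

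**Figure D1:**
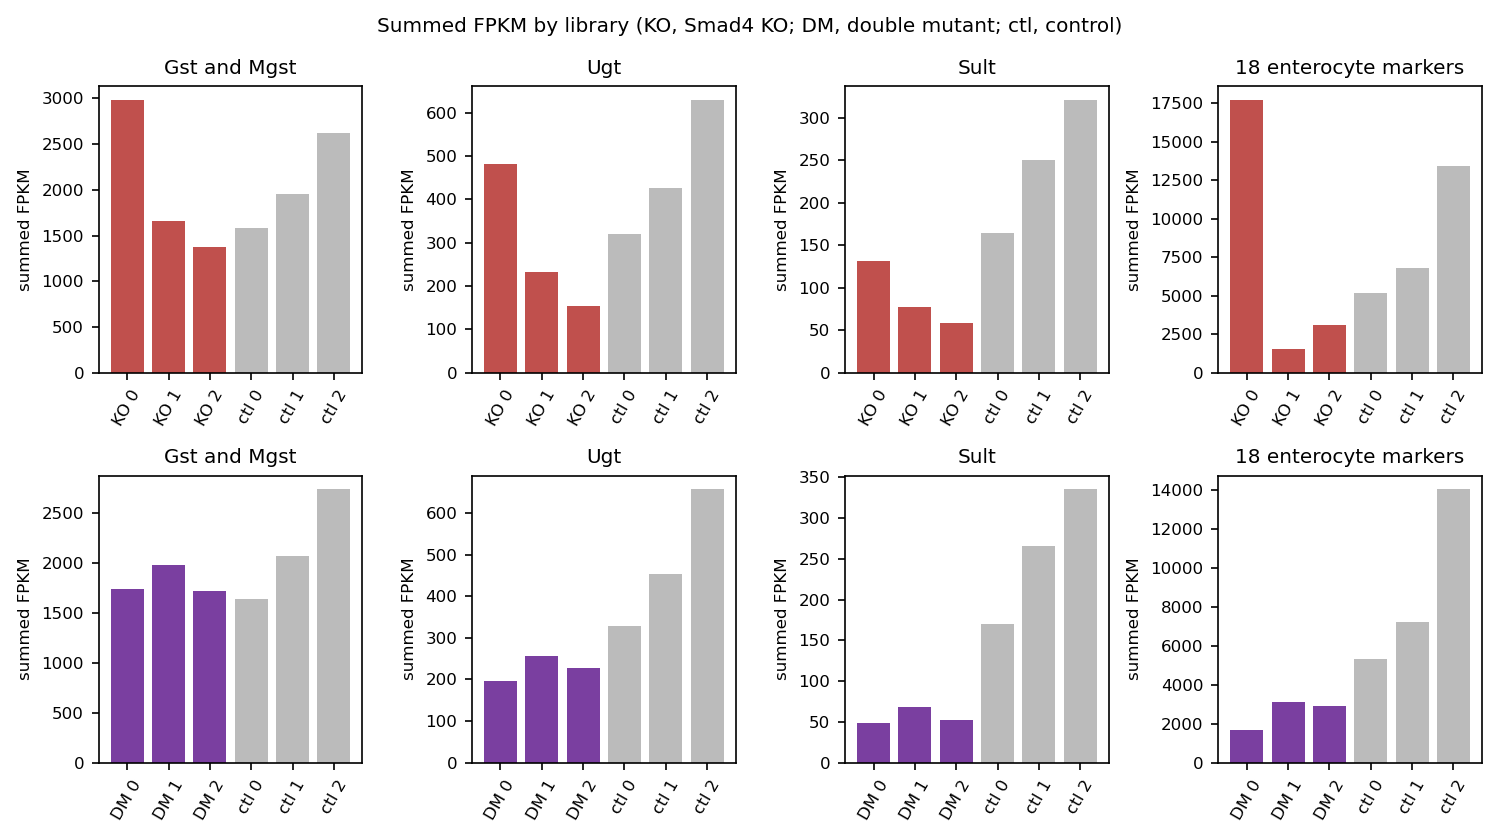
Summed FPKM of each enzyme family and of the enterocyte markers by library (vertical axes, starting at 0), with mutant libraries coloured and control libraries grey; the upper row is the Smad4 KO table and the lower row the double mutant table. The Sult sums were 48.9 to 68.1 FPKM in double mutants, against 170 to 335 FPKM in controls, and the enterocyte marker sum of Smad4 KO replicate 0 was 17730 FPKM.

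In double mutant crypts 4 of the 5 tested sulfotransferases and 5 of the 9 tested UDP-glucuronosyltransferases fell, against 2 of the 21 tested glutathione S-transferases, and the 2 members that rose were Gsta3 and Ugt1a6b. Of the 35 tested members, 11 fell (31.4%) and 2 rose (5.71%), where 9.09% of all 11762 genes tested fell and 9.39% rose (18.5% in all) at an adjusted p below 0.05 in limma. Sult1a1 was the tested member that averaged under 1 FPKM in a mutant group, so it passed the filter through its controls. The mean was lower in double mutants for 27 members (77.1%), against 50.1% of all genes. At an unadjusted p below 0.05, 19 members were lower and 2 higher, where 18.4% of all genes were lower and 18.2% higher. The median log2 fold change was -0.55 over the members and -0.001 over all genes tested. Mutant and control libraries did not overlap for 17 members on the low side and 3 on the high side, where 21.3% of all genes did so in each direction. A difference between families was not tested. The 13 calls had limma adjusted p between 0.0105 and 0.04999, and how many there were depended on which library was left out. Without double mutant replicate 2 no member passed, where 0.102% of all genes fell and 0.153% rose, and without double mutant replicate 0 just 1 member fell, where 0.522% of all genes did. The members that fell numbered 4 without double mutant replicate 1 (3.15% of all genes), 14 without control replicate 0 (7.66%), 5 without control replicate 1 (4.13%) and 6 without control replicate 2 (4.53%), and 1 member rose in each of these fits, where 2.87%, 5.61%, 5.83% and 4.55% of all genes did.

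**Figure D2:**
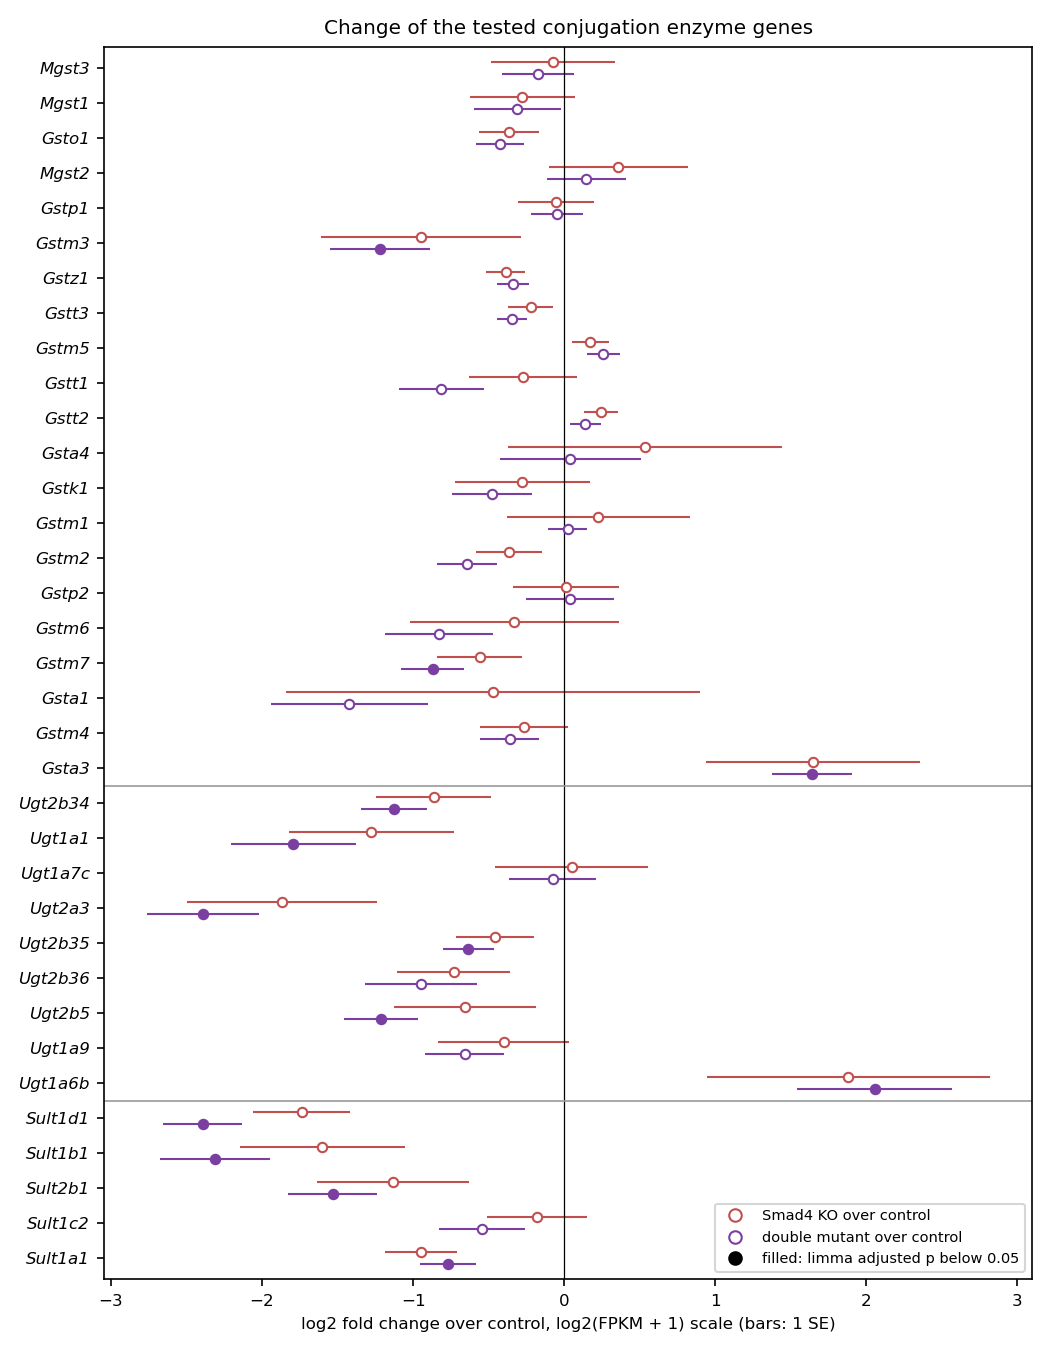
Log2 fold change over control with 1 SE (horizontal axis, log2(FPKM + 1) scale) for the 35 tested members in Smad4 KO (red, upper of each pair) and double mutant (purple, lower) crypts, grouped as Gst, Ugt and Sult. Filled points passed limma at an adjusted p below 0.05, and all 13 of them are double mutant points.

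The sulfotransferases that fell act on several kinds of substrate. Sult1d1, which sulfates catecholamines and phenols in the mouse, was at 17.4, 24.5 and 20.2 FPKM in double mutants, against 76.0, 141 and 131 FPKM in controls. The highest mutant library was far under the lowest control. It fell by 2.39 (SE 0.26) on the log2 scale (limma adjusted p = 0.0105). Sult1b1, a sulfotransferase of thyroid hormones and small phenols, was at 10.3, 17.4 and 13.5 FPKM in double mutants, against 42.7, 73.4 and 113 FPKM in controls. Again the groups did not overlap, and it fell by 2.31 (SE 0.37, limma adjusted p = 0.0171). Sult2b1, which sulfates cholesterol and related sterols, was at 18.2, 24.2 and 15.4 FPKM in double mutants, against 47.1, 44.3 and 87.2 FPKM in controls. It fell by 1.53 (SE 0.29, limma adjusted p = 0.0241), with control replicate 2 well above the other 2 controls. Sult1a1, the main phenol sulfotransferase of the liver, was barely expressed in these crypts, with 1.03, 0.718 and 1.15 FPKM in double mutants and 2.001, 2.96 and 2.13 FPKM in controls. It fell by 0.77 (SE 0.18, limma adjusted p = 0.0379), a scale on which the added 1 FPKM reduces the change of so low a gene. Sult1c2 was the fifth tested sulfotransferase. Its levels were 1.28, 0.991 and 1.54 FPKM in double mutants and 1.51, 3.96 and 1.88 FPKM in controls, groups that overlapped (limma adjusted p = 0.216).

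UDP-glucuronosyltransferases of the Ugt2 family fell, as did 2 of these sulfotransferases that lie beside them in the genome. RefSeq's order of protein-coding genes was used, with genes named only by Gm and a number left out. In that order 13 members follow each other on chromosome 5 from Ugt2b34 to Sult1e1 with no other gene between them, and 7 of these were tested. All 7 had a lower mean in double mutants and 6 passed the test, Ugt2b36 being the exception (log2 fold change -0.95, SE 0.37, limma adjusted p = 0.121). Ythdc1, the tested gene next to the row, differed by -0.06 (SE 0.10, limma adjusted p = 0.685). Of the 10 runs of neighbouring members in the genome, the chromosome 5 run held 6 of the 11 members that fell. Ugt2 genes in the mouse are close copies of each other, and neighbouring copies can share reads, and 41.7% of the 50-base stretches of Ugt2b5 also occur in another gene. That share was 4.55% for Ugt2a3, below it for the other tested Ugt2b genes and 0% for Sult1d1 and Sult1b1.

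**Figure D3:**
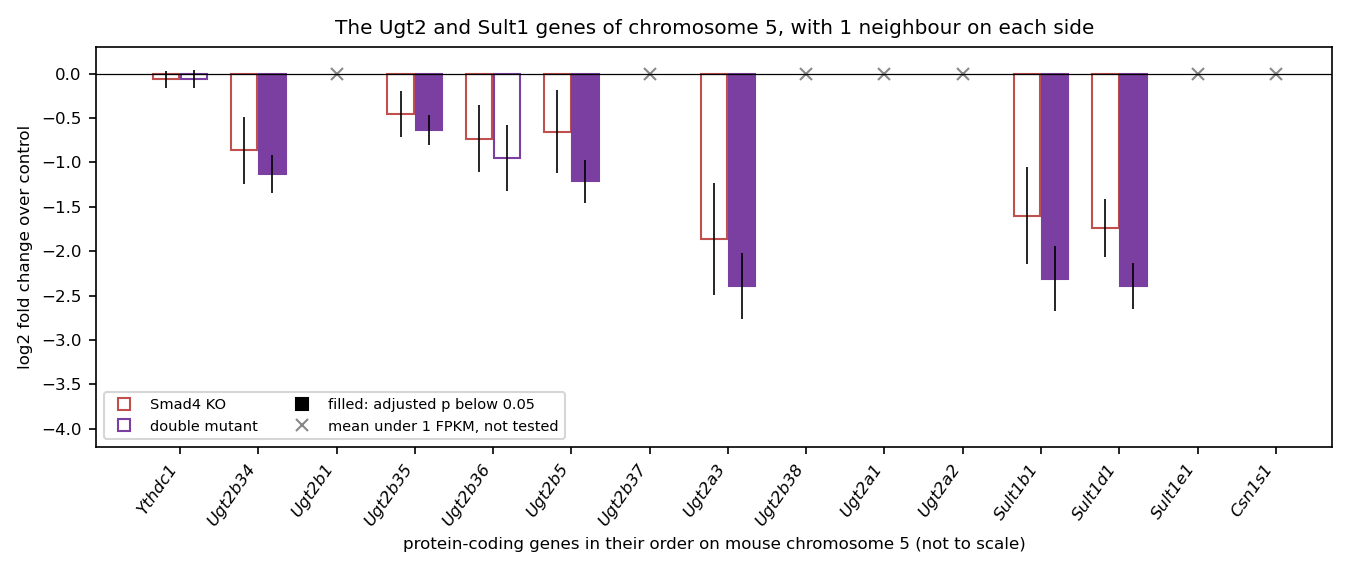
Log2 fold change over control with 1 SE (vertical axis) for the run of Ugt2 and Sult1 genes on chromosome 5 in genomic order (horizontal axis, not to scale), with the neighbouring gene on either side; red is Smad4 KO, purple double mutant, filled bars passed limma at an adjusted p below 0.05, and crosses mark genes not tested. All 7 tested members point down in both comparisons, while Ythdc1 stays near 0.

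Ugt2a3, whose human counterpart glucuronidates bile acids, had the largest log2 fold change of the Ugt2 genes, with 6.64, 8.89 and 9.79 FPKM in double mutants, against 28.4, 47.7 and 81.5 FPKM in controls. The mutant libraries lay close together and below all controls, and the gene fell by 2.39 (SE 0.37, limma adjusted p = 0.0168). Ugt2b34, the most abundant Ugt transcript in control crypts, was at 76.0, 104 and 95.5 FPKM in double mutants, against 151, 212 and 249.1 FPKM in controls, and fell by 1.13 (SE 0.22, limma adjusted p = 0.0243). Ugt2b35 was at 14.5, 16.8 and 17.03 FPKM in double mutants, against 20.9, 32.2 and 24.6 FPKM in controls. Here the gap between the groups was smaller, and the gene fell by 0.63 (SE 0.17, limma adjusted p = 0.0476). Ugt2b5 was at 1.69, 1.30 and 1.05 FPKM in double mutants, against 3.59, 3.52 and 6.61 FPKM in controls, and fell by 1.21 (SE 0.25, limma adjusted p = 0.0269).

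The promoters of the 3 genes of this run with the smallest p-values are printed below, followed by that of Gsta3, the member that rose with the smallest p-value. Each covers 250 bases before and 50 after a RefSeq transcript start (mouse build GRCm38.p6, whereas the authors aligned to mm9), 5′ to 3′ on the gene's strand, and capitals mark matches to the motifs described after them. The 50 bases after the start occur unbroken in a GENCODE M21 protein-coding transcript of the same gene for Sult1d1, Ugt2a3 and Sult1b1, but not for Gsta3. The reason was not tested. The Sult1d1 promoter is chr5:87568957-87569256 (minus strand), that of Ugt2a3 is chr5:87337146-87337445 (minus strand), that of Sult1b1 is chr5:87536173-87536472 (minus strand, the start of the 2 in RefSeq that holds a match) and that of Gsta3 is chr1:21240335-21240634 (plus strand).
Sult1d1: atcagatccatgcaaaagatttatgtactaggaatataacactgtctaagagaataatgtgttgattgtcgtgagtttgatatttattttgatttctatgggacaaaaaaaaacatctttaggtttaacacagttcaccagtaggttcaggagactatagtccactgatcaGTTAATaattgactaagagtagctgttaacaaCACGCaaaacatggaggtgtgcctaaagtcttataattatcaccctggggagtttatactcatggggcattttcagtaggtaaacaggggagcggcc
Ugt2a3: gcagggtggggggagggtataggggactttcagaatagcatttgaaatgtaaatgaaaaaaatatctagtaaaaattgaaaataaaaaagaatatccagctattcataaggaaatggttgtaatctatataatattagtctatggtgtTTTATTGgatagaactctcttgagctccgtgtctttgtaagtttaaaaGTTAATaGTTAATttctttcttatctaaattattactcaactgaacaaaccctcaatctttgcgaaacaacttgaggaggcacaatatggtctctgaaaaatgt
Sult1b1: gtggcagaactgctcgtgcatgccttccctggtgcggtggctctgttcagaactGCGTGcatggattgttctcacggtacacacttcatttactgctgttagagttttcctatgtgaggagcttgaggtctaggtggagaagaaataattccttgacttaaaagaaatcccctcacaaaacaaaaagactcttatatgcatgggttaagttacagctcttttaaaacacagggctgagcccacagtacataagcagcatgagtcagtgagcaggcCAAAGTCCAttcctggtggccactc
Gsta3: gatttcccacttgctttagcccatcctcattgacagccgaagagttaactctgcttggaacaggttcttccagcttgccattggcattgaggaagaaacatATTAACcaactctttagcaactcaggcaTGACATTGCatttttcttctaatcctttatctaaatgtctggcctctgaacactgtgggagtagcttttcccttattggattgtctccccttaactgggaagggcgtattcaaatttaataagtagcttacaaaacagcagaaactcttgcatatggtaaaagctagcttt
A search on both strands looked for 6 short motifs in these windows. GTTAAT, a core of the site bound by the hepatocyte nuclear factor HNF1, was found in the Sult1d1 window, in 2 copies in that of Ugt2a3 and, as ATTAAC on the other strand, in that of Gsta3. It occurred in 6 of the 42 RefSeq promoters of tested members (14.3%), those of 6 genes of which 4 fell, and in 7.1% of all 32851 promoters. CAAAGTCCA, an element preferred by HNF4, was found in 1 of the 42 (2.38%), that of Sult1b1, and in 0.475% of all promoters. TTTATNG, an element of the intestinal factor CDX2, was found in 2 (4.76%), those of Ugt2a3 and Gstm6, and in 10.9% of all promoters. TGACNNNGC, the antioxidant response core bound by NRF2, was found in 4 (9.52%), those of Gsta3, Gstm5, Gstm7 and Mgst1, and in 12.4% of all promoters. GCGTG, the core bound by the aryl hydrocarbon receptor, was found in 10 (23.8%), of 8 genes that include Sult1d1 (as CACGC) and Sult1b1, and in 32.4% of all promoters. CTTTGAT, an element of the TCF factors that act with beta-catenin, was in none of the members' windows and in 3.73% of all promoters. These matches describe letters in a short window and say nothing of binding.

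The Ugt1a entries went in opposite directions. All 8 come from a single locus on chromosome 1 in which alternative first exons are joined to the same remaining exons, so most reads cannot be assigned to an entry and its FPKM is an estimate. In GENCODE M21 transcripts the 8 entries end in, or contain, the same run of 1313 bases. Shown here are the 40 bases before that run in lower case, joined to its first 40 bases in capitals, for the 4 tested entries and for Ugt1a6a.
Ugt1a6b: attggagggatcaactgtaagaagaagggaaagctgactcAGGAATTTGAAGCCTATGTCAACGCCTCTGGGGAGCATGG
Ugt1a6a: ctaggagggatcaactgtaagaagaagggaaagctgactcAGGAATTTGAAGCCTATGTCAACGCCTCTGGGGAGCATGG
Ugt1a1: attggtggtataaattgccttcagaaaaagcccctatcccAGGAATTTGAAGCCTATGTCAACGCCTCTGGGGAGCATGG
Ugt1a7c: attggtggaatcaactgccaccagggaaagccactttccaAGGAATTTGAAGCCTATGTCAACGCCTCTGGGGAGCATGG
Ugt1a9: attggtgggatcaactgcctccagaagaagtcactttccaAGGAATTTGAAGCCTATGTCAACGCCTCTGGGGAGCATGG
Ahead of the shared bases, Ugt1a6b and Ugt1a6a are identical at 38 of 40 positions, and Ugt1a6b and Ugt1a1 at 21 of 40. Ugt1a6b, of the subfamily that glucuronidates small planar phenols, was at 26.7, 6.91 and 6.71 FPKM in double mutants, against 1.31, 2.04 and 2.35 FPKM in controls. All 3 mutant libraries were above all controls, with replicate 0 apart from the other 2, and the gene rose by 2.06 (SE 0.51, limma adjusted p = 0.0414). Ugt1a6a lay under the filter, at 0.311, 1.17 and 1.18 FPKM in double mutants and 0.0735, 0.389 and 0.418 FPKM in controls. Ugt1a1, the enzyme that glucuronidates bilirubin, was at 20.7, 42.4 and 31.3 FPKM in double mutants, against 74.0, 86.9 and 191 FPKM in controls, and fell by 1.79 (SE 0.41, limma adjusted p = 0.0357). Ugt1a7c, the third most abundant Ugt entry of control crypts, was at 42.2, 71.0 and 59.7 FPKM in double mutants and 43.6, 57.0 and 84.3 FPKM in controls, which overlapped (log2 fold change -0.07, SE 0.29, limma adjusted p = 0.871). Summed over the 8 entries, the locus was at 91.5, 123.4 and 101 FPKM in double mutants, against 121, 149 and 283 FPKM in controls. The sum missed the threshold (log2 fold change -0.72, SE 0.32, limma adjusted p = 0.162), and how the division of reads within the locus bears on the calls of Ugt1a6b and Ugt1a1 was not tested.

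Among glutathione S-transferases the most abundant genes differed little. Mgst3, a microsomal enzyme with peroxidase activity, was at 406, 457 and 411 FPKM in double mutants and 342, 508 and 626 FPKM in controls. Mgst1, which protects membranes from lipid peroxides, was at 321, 338 and 267 FPKM in double mutants and 280, 339 and 585 FPKM in controls. Gsto1, an omega-class enzyme that reduces dehydroascorbate, was at 255, 315 and 282 FPKM in double mutants, against 325, 432 and 390 FPKM in controls. For Mgst3 and Mgst1 the groups overlapped, whereas for Gsto1 they did not, yet none of the 3 passed (limma adjusted p = 0.635, 0.472 and 0.112). Their log2 fold changes were -0.17 (SE 0.24), -0.31 (SE 0.29) and -0.42 (SE 0.16). Mgst2, which conjugates leukotriene A4, was at 284, 333 and 268 FPKM in double mutants and 228, 208 and 395 FPKM in controls. Gstp1, the main pi-class enzyme, was at 183, 226 and 202 FPKM in double mutants and 172, 214 and 250 FPKM in controls, and 51.0% of its 50-base stretches are shared with another gene. Neither gene passed the test, with log2 fold changes of 0.14 (SE 0.26) for Mgst2 and -0.05 (SE 0.17) for Gstp1 (limma adjusted p = 0.718 and 0.866).

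Gsta3, an alpha-class enzyme known in the mouse for detoxifying the aflatoxin epoxide, rose. It was at 11.2, 7.77 and 6.14 FPKM in double mutants, against 2.49, 1.19 and 2.30 FPKM in controls, with no overlap. The rise was by 1.64 (SE 0.26) on the log2 scale (limma adjusted p = 0.0177), and no 50-base stretch of its transcripts occurs in another gene. Gstm7 and Gstm3, mu-class enzymes of the row of 7 tested Gstm genes on chromosome 3, fell. Gstm3 was at 22.9, 29.5 and 21.8 FPKM in double mutants, against 41.7, 48.1 and 98.99 FPKM in controls, and fell by 1.22 (SE 0.33, limma adjusted p = 0.04999). Gstm7 was at 4.26, 3.59 and 4.76 FPKM in double mutants, against 6.18, 8.76 and 11.1 FPKM in controls, and fell by 0.87 (SE 0.21, limma adjusted p = 0.0382). Of the 50-base stretches of Gstm3, 28.8% also occur in another gene, and of those of Gstm7 0.532% do. Gstm5, of the same row, was above all controls in the double mutants, with 41.4, 46.4 and 40.6 FPKM against 36.1, 39.2 and 31.9 FPKM, a difference of 0.26 (SE 0.11) that missed the threshold (limma adjusted p = 0.147). Within the row, 5 of 7 genes had a lower mean in the double mutants. The tested members not described so far, all of them Gst genes except Ugt1a9, had log2 fold changes between -1.42 for Gsta1 and 0.14 for Gstt2, and none passed.

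**Figure D4:**
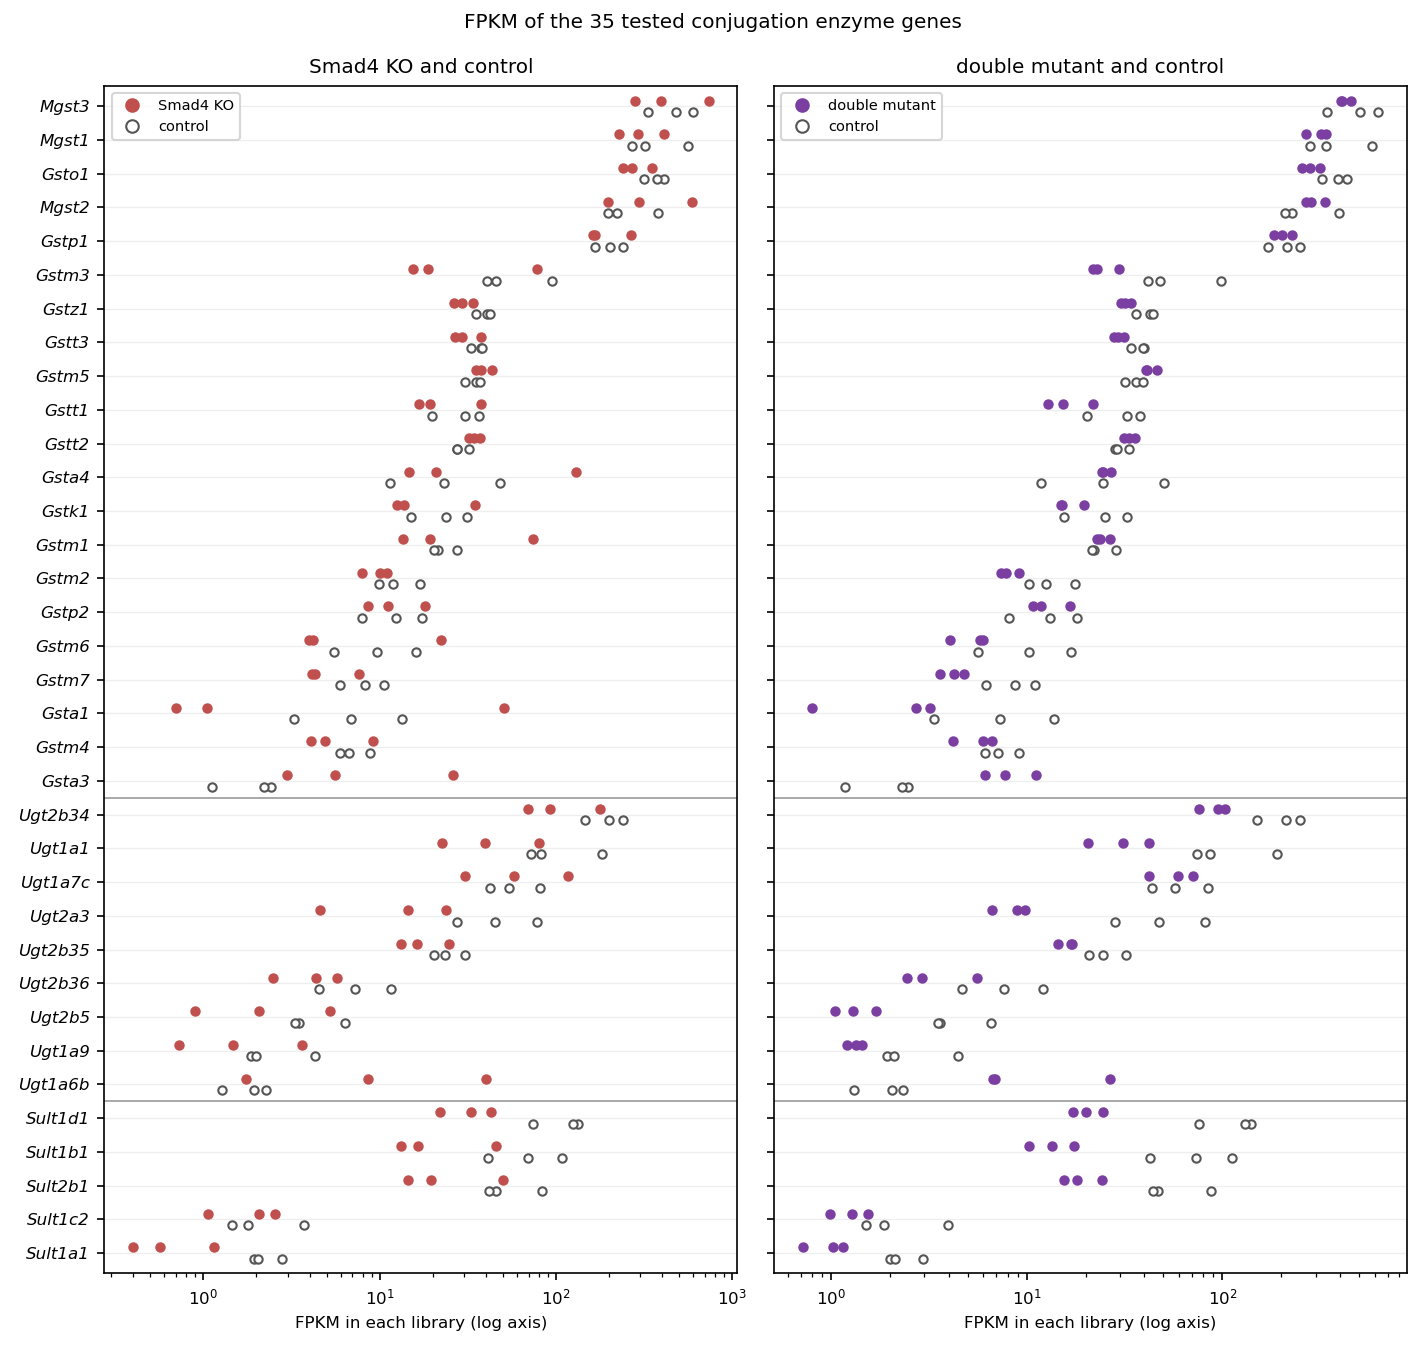
FPKM in each library (horizontal log axis) for the 35 tested members, grouped by family and ordered by control mean, with Smad4 KO and control at the left and double mutant and control at the right. Filled points are mutant libraries and open points below them control libraries; Sult1d1 lay between 17.4 and 24.5 FPKM in double mutants, against 76.0 to 141 FPKM in controls.

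In Smad4 KO crypts no member passed the test. Of all 11849 genes tested, 0.0338% passed in limma (0.00844% higher and 0.0253% lower), so few genes of any kind passed in this comparison. At an unadjusted p below 0.05, 5 members were lower and 0 higher, where 9.34% of all genes were lower and 9.76% higher. Means were lower in Smad4 KO for 26 of the 35 members (74.3%), against 50.4% of all genes, with a median log2 fold change of -0.33 over members and -0.003 over all genes. Groups did not overlap for 4 members on the low side, where 12.2% of all genes did so, and for 1 on the high side, where 14.2% did. The Sult family summed to 89.2 ± 37.7 FPKM in Smad4 KO and 246 ± 78.6 FPKM in controls (SD, n = 3 each), the Ugt family to 289 ± 172 FPKM in Smad4 KO and 459 ± 158 FPKM in controls, and the Gst family to 2008 ± 858 FPKM in Smad4 KO and 2052 ± 525 FPKM in controls. Of the 3 families the Sult sums alone kept the groups apart, at 58.7 to 131 FPKM in Smad4 KO, against 164 to 321 FPKM in controls.

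Sult1d1 came nearest to the threshold, with 32.9, 42.8 and 21.9 FPKM in Smad4 KO replicates 0, 1 and 2, against 73.7, 133 and 125 FPKM in controls. All 3 Smad4 KO libraries were below all controls, and the log2 fold change was -1.74 (SE 0.32, limma adjusted p = 0.112). Sult1a1 was at 0.40, 0.568 and 1.15 FPKM in Smad4 KO, against 1.94, 2.79 and 2.04 FPKM in controls (log2 fold change -0.95, SE 0.24, limma adjusted p = 0.152). Ugt2a3 was at 23.9, 14.4 and 4.59 FPKM in Smad4 KO, against 27.5, 45.1 and 78.2 FPKM in controls (log2 fold change -1.87, SE 0.63, limma adjusted p = 0.203). Gstz1, an enzyme of tyrosine breakdown, was at 26.5, 33.8 and 29.3 FPKM in Smad4 KO, against 35.3, 40.5 and 42.2 FPKM in controls (log2 fold change -0.39, SE 0.13, limma adjusted p = 0.201). These 4 genes were the members whose Smad4 KO libraries all lay below the controls. An exact two-sided permutation test of 3 against 3 libraries cannot go below p = 0.1, the value that each of these 4 genes and Gsta3 had. Sult1b1 was at 45.9, 16.4 and 13.2 FPKM in Smad4 KO and 41.4, 69.3 and 108 FPKM in controls, an overlap made by replicate 0 alone (log2 fold change -1.60, SE 0.55, limma adjusted p = 0.206). Sult2b1 was at 50.2, 14.4 and 19.5 FPKM in Smad4 KO and 45.6, 41.8 and 83.6 FPKM in controls, where replicate 0 again lay among the controls (limma adjusted p = 0.288 for a log2 fold change of -1.13, SE 0.50). The 7 tested genes of the chromosome 5 run all had lower means in Smad4 KO, with log2 fold changes between -1.87 and -0.46, while Ythdc1 differed by -0.06.

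On the high side, Gsta3 was at 26.2, 2.97 and 5.58 FPKM in Smad4 KO, against 2.41, 1.12 and 2.2 FPKM in controls. Its groups did not overlap, but replicate 0 was several times higher than the other 2 Smad4 KO libraries, and the log2 fold change of 1.65 (SE 0.71) missed the threshold (limma adjusted p = 0.278). Ugt1a6b was at 40.2, 1.75 and 8.53 FPKM in Smad4 KO and 1.27, 1.93 and 2.25 FPKM in controls, with replicate 1 inside the control range (log2 fold change 1.88, SE 0.94, limma adjusted p = 0.329). Without Smad4 KO replicate 0, Gsta3 had a log2 fold change of 0.84 (SE 0.33), against -1.77 for Sult1d1, -2.13 for Sult1b1 and -2.34 for Ugt2a3, and still no member passed the test.

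The most abundant members overlapped between Smad4 KO and control crypts in most cases. Mgst3 was at 734, 394 and 282 FPKM in Smad4 KO and 332, 480 and 600 FPKM in controls (limma adjusted p = 0.94). Gsto1 was at 349, 270 and 240 FPKM in Smad4 KO and 315, 408 and 374 FPKM in controls (limma adjusted p = 0.367). In both genes the highest Smad4 KO library was replicate 0, above all controls for Mgst3 and among them for Gsto1. Among Ugt genes, Ugt2b34 was at 179, 92.9 and 69.2 FPKM in Smad4 KO and 147, 201 and 239 FPKM in controls (log2 fold change -0.86, SE 0.38, limma adjusted p = 0.286). Ugt1a1 was at 79.7, 39.8 and 22.7 FPKM in Smad4 KO and 71.7, 82.0 and 183 FPKM in controls (log2 fold change -1.28, SE 0.55, limma adjusted p = 0.274). For Ugt2b34 and Ugt1a1, replicates 1 and 2 were below all controls and replicate 0 was among them. Ugt1a7c, at 117, 57.5 and 30.4 FPKM in Smad4 KO and 42.3, 53.8 and 80.8 FPKM in controls, had 1 Smad4 KO library above, 1 within and 1 below the control range. Summed over the Ugt1a locus, Smad4 KO libraries were at 244, 102 and 63.5 FPKM, against 117, 140 and 271 FPKM in controls (log2 fold change -0.50, SE 0.56, limma adjusted p = 0.66). Gstm3 was at 77.6, 15.6 and 18.8 FPKM in Smad4 KO and 40.5, 45.4 and 94.9 FPKM in controls, again with replicate 0 among the controls and the other 2 below them (log2 fold change -0.95, SE 0.66, limma adjusted p = 0.482).

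Smad4 KO replicate 0, the library with the highest enterocyte marker sum, had the highest level of the 3 Smad4 KO libraries for 28 of the 35 members (80.0%), against 36.2% of all genes tested. It was the highest of all 6 libraries for 14 members. Gsta1, Gsta4 and Gstm1 (picked here once their values were known) reached 50.5, 130 and 73.8 FPKM in Smad4 KO replicate 0, against at most 13.3, 48.1 and 27.4 FPKM in a control. The share of their 50-base stretches that also occur in another gene is 89.7%, 0% and 19.9%. By contrast Sult1d1, Sult1a1, Sult1c2, Ugt2a3, Gstz1 and Gstm2 were below all controls in this library. Among the controls a similar order appeared, since control replicate 2 had the highest enterocyte marker sum and was the highest control for 28 members, where 36.7% of all genes did so. For 23 members (65.7%) the controls ranked as their enterocyte marker sums did, with replicate 2 above replicate 1 and replicate 1 above replicate 0, against 17.1% of all genes. The median SD of members on the log2 scale was 0.69 in Smad4 KO and 0.44 in controls of that table, where all genes had 0.21 and 0.18. In the double mutant table it was 0.20 in double mutants and 0.45 in controls, where all genes had 0.14 and 0.18. How far the enterocyte content of the libraries enters the differences between groups was not tested.

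**Figure D5:**
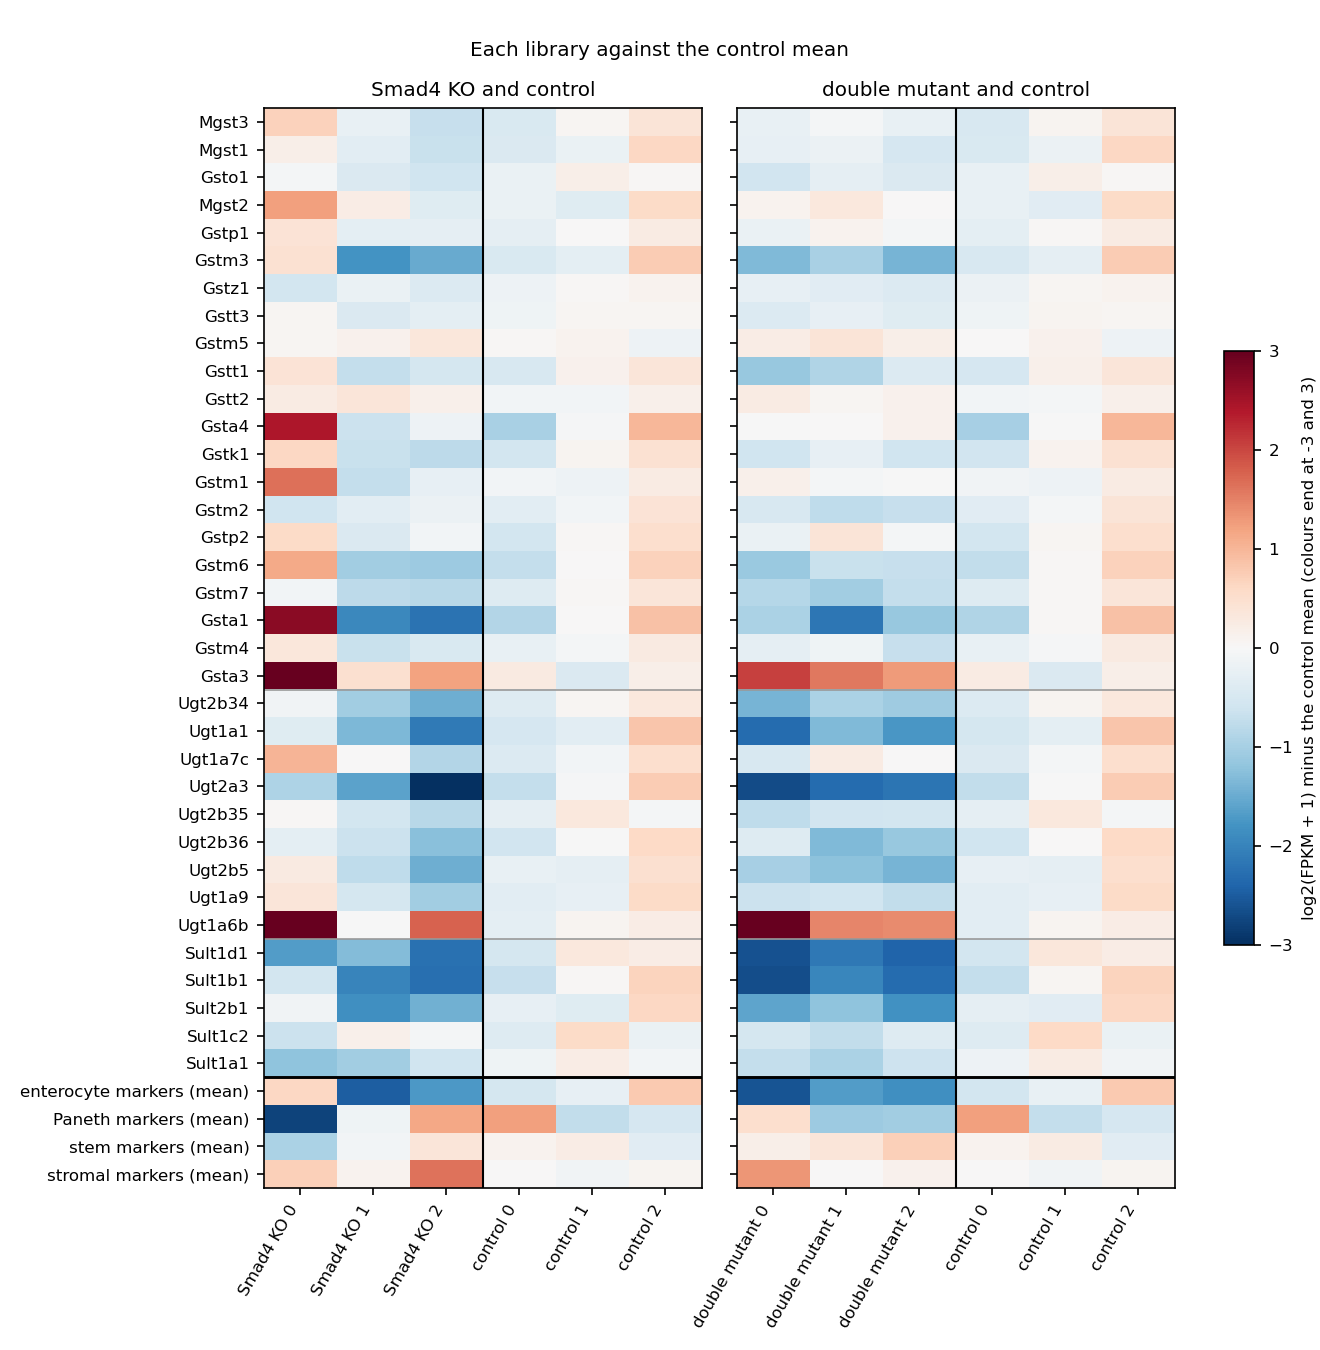
Log2(FPKM + 1) of each tested member in each library minus the control mean (colour, ending at -3 and 3), with mutant libraries left and control libraries right of the line in each panel; the last 4 lines give the mean of marker lists. Smad4 KO replicate 0 is red for Gsta1, Gsta3, Gsta4 and Ugt1a6b and for the enterocyte markers, while Sult1d1 is blue in all 6 mutant libraries.

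Genes that serve conjugation were then counted in 6 lists. None of their members passed the test in Smad4 KO crypts, so the calls that follow are from the double mutants, where 9.39% of all genes rose and 9.09% fell. Of 16 tested genes for cofactor supply, 3 fell and 0 rose. Slc26a2, a sulfate transporter, was at 25.0, 25.4 and 25.6 FPKM in double mutants, against 47.8, 48.7 and 49.9 FPKM in controls, with hardly any spread within a group (log2 fold change -0.92, limma adjusted p = 0.00694). Papss1, which makes the sulfate donor PAPS, was at 30.8, 33.2 and 35.5 FPKM in double mutants, against 49.0, 58.6 and 60.5 FPKM in controls (log2 fold change -0.73, limma adjusted p = 0.0168). Both were also below all controls in Smad4 KO, at 26.9 to 38.0 FPKM against 46.0 to 47.9 FPKM for Slc26a2 and 31.9 to 37.6 FPKM against 47.5 to 58.0 FPKM for Papss1 (limma adjusted p = 0.156 and 0.124). Ggt1, which cleaves extracellular glutathione, fell by 2.1 in double mutants (limma adjusted p = 0.0278). Of 9 tested other conjugating enzymes, the N-acetyltransferases Nat2 and Nat8, the arsenic methyltransferase As3mt and the acyl-CoA synthetase Acsm3 fell by 0.77, 1.96, 0.69 and 0.80, and Comtd1 rose by 0.64 (limma adjusted p = 0.0269 to 0.0378). In Smad4 KO the smallest p-values of this list belonged to As3mt (log2 fold change -0.80) and Comtd1 (0.46), with limma adjusted p of 0.108 and 0.180.

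Of 10 tested relatives of the glutathione transferases, the intracellular chloride channel protein Clic5 fell by 2.75 and the elongation factor subunit Eef1g rose by 0.35 in double mutants (limma adjusted p = 0.0124 and 0.0434). Their log2 fold changes in Smad4 KO were -2.15 and 0.22 (limma adjusted p = 0.180 and 0.272). Of 9 tested genes that act on conjugates, 2 rose and 3 fell. Gusb, the lysosomal beta-glucuronidase that splits glucuronides, was at 35.2, 37.7 and 32.8 FPKM in double mutants, against 19.5, 16.1 and 16.7 FPKM in controls. The groups were far apart, and it rose by 0.97 (SE 0.11, limma adjusted p = 0.0106). In Smad4 KO it was at 38.9, 29.1 and 32.0 FPKM, against 19.0, 15.2 and 16.04 FPKM in controls, again without overlap (log2 fold change 0.95, SE 0.15, limma adjusted p = 0.107). Sumf2, a relative of the sulfatase-activating enzyme, rose by 0.58 in double mutants. The dipeptidase Dpep1, the aminoacylase Acy1 and the aminopeptidase Anpep, which is also in the enterocyte list, fell by 2.60, 1.47 and 2.26 (limma adjusted p = 0.0125 to 0.0328). Acy1 had the second smallest p-value of this list in Smad4 KO (log2 fold change -1.09, limma adjusted p = 0.194).

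Of 11 tested genes for conjugate efflux, 2 rose and 3 fell in double mutants. The exporters Abcc1 and Abcc4 rose by 0.82 and 0.98 (limma adjusted p = 0.0163 and 0.0212). Abcc1 was at 9.41, 9.33 and 9.47 FPKM in double mutants, against 5.93, 4.60 and 4.32 FPKM in controls. In Smad4 KO their log2 fold changes were 0.87 and 1.12 (limma adjusted p = 0.122 and 0.130), with all 3 mutant libraries above all controls for both genes. The apical exporter Abcc2 and the basolateral bile acid and steroid transporter subunits Slc51a and Slc51b fell by 1.12, 2.30 and 2.38 (limma adjusted p = 0.042, 0.016 and 0.00832). Of 19 tested regulators, the nuclear receptors Hnf4g, Vdr and Ppara fell by 1.67, 1.30 and 0.83, and the forkhead factor Foxa2 rose by 0.63 (limma adjusted p = 0.017 to 0.0466). Vdr, the vitamin D receptor, was at 38.6, 56.9 and 57.4 FPKM in double mutants, against 93.9, 151 and 137 FPKM in controls. It was at 52.9, 51.5 and 41.9 FPKM in Smad4 KO, against 91.0, 142 and 132 FPKM in controls, and its difference there (log2 fold change -1.28, limma adjusted p = 0.107) was followed in this list by that of the bile acid receptor Nr1h4 (-0.54, limma adjusted p = 0.144).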

How the data were processed

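Per the labels, RNA from EDTA-released crypts (3 mM EDTA, 70 micron filter) was made into TruSeq libraries, and counting by strand is not stated. The submitters' processing notes name TopHat2 2.1.1, Cuffnorm 2.2.1, Cuffdiff 2.2.1 and build mm9. The deposited values are FPKM by the authors, normalized separately in each of 2 tables of 6 libraries. A control library's FPKM differs between the tables by a constant factor (1.031, 1.06 and 1.043). From these, log2(FPKM + 1) was fitted per table with limma 3.58.1 (R 4.3.3, mean-variance trend), for genes averaging at least 1 FPKM, two-sided, with Benjamini-Hochberg adjustment over all genes tested and calls below 0.05. The added 1 understates changes of low genes. Depth is known only in relative terms. Genes were named by rule: Smad4, called members, the 5 most abundant of each family in controls, non-overlapping members with the smallest p, and called or smallest-p genes of the 6 other lists. Members and lists were chosen with earlier results of these data known. Sequences came from RefSeq (55 of 63 members matched) and GENCODE M21. Replicate numbers were not used to pair libraries in the fit reported, and whether they mark pairs is not stated.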

Additional observations from a re-analysis of the deposited data

How the results depend on the processing

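The fall of Sult1d1, Sult1b1, Ugt2a3 and Sult2b1 in double mutants and the rise of Gsta3 passed the test in 16, 15, 15, 13 and 14 of 17 alternatives. The other calls passed less widely: Ugt2b34 in 11, Gstm7 in 10, Ugt2b35 in 7 and Gstm3 in 6 of 17, and Ugt2b5 in 11, Ugt1a1 in 8, Sult1a1 in 7 and Ugt1a6b in 5 of 16. No called member changed direction in any. The members that fell, 11 in the fit reported, numbered 7 with no filter (3.45% of all genes fell) and 3 with the 9 libraries joined in a single fit (6.42%). Under the other settings with all libraries 8 to 12 fell, where 6.1% to 10.8% of all genes did. Of the 9 that fell with the sex covariate, 7 were among the 11, and 6.1% of all genes fell in that fit. Of the 2 that rose, 1 did so with a pseudocount of 5 (9.26% of all genes rose), with no filter (4.29%) and with the sex of the library as covariate (6.81%). Again 1 rose in the replicate block (6.22%). With the Ugt1a entries summed, 32 entries were tested and 1 rose (9.38%). Ugt1a6b and Ugt1a1 were not entries of that fit, so their calls had to drop out of its counts. With the 9 libraries joined 0 rose, where 7.96% of all genes did. Leaving out a library in turn gave 0 to 14 members that fell and 0 to 1 that rose. Over these fits 0.102% to 7.66% of all genes fell and 0.153% to 5.83% rose. Of the members, 1 fell without double mutant replicate 0, 4 without replicate 1 and 0 without replicate 2, and 14, 5 and 6 without control replicates 0, 1 and 2. The cause was not tested. In Smad4 KO, 1 member (Sult1d1, limma adjusted p = 0.0288) fell with the 9 libraries joined, where 1.51% of all genes fell and 2.3% rose. No member passed otherwise, left-out libraries included. The members' median log2 fold change in Smad4 KO was -0.56 without Smad4 KO replicate 0 and -0.13 without control replicate 2.

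Replicate numbers share no stated origin. Deviations of same-numbered libraries correlated at -0.111, 0.223 and -0.0987 in the Smad4 KO table and at 0.072, 0.132 and 0.0374 in the double mutant table, where every double mutant library correlated best with its own number, a hint from the data alone. Smad4 itself missed the threshold in Smad4 KO with the replicate block and with the sex covariate, while its log2 fold change stayed between -2.22 and -1.81 over all alternatives. With the replicate block, 8 members fell, 7 of them among the 11, and 1 rose, where 7.4% of all genes fell and 6.22% rose.

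Members near 0 changed sign, none of them called. With a pseudocount of 5, Gsta1 in Smad4 KO was at 0.03. With quantile normalization, Gstp1 in double mutants was at 0.031. With the sex covariate, Gsta1 and Mgst3 in Smad4 KO were at 0.107 and 0.016, and Gsta4, Gstm1 and Gstp2 in double mutants at -0.219, -0.06 and -0.001. Over the left-out libraries, log2 fold changes in Smad4 KO ranged from -2.07 to 0.393 for Gsta1, -0.408 to 1.13 for Gsta4, -0.482 to 0.70 for Gstm1, -0.263 to 0.262 for Gstp2, -0.072 to 0.719 for Mgst2, -0.369 to 0.103 for Sult1c2, -0.434 to 0.518 for Ugt1a7c, -1.06 to 0.054 for Gstm6, -0.287 to 0.074 for Gstp1, -0.454 to 0.234 for Mgst3 and -0.501 to 0.031 for Mgst1. In double mutants they ranged from -0.048 to 0.144 for Gstm1, -0.188 to 0.08 for Gstp1, -0.294 to 0.173 for Ugt1a7c, -0.243 to 0.287 for Gstp2, -0.457 to 0.54 for Gsta4, -0.03 to 0.429 for Mgst2 and -0.411 to 0.024 for Mgst3. Read counts were not given, so no detection limit could be set for low genes.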
